A study of Mus musculus with 12 samples.

Results

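The wild-type (WT) proximal colon was described from the 6 samples that the labels give as wild type, out of 12 samples in the study. The other 6 samples, from APC Min mice, entered no value below. The samples were taken by that label, and no genotypes were compared. Both the samples and the gene lists used below were chosen with earlier results of these data known. The study asked whether a mutation of the Apc gene changes the way gut bacteria and the intestinal lining meet before polyps form, and sequenced RNA of the proximal colon for that purpose. Each WT sample is 1 female C57BL/6 mouse of 6 weeks, housed apart from the mutant mice and bought in several shipments. The labels do not say which mouse came in which shipment. Total RNA was taken from tissue that the labels give as proximal colonic mucosa and the study's methods as a short section of the proximal colon put in RNAlater. Mice are named as in the labels, M17_2, M19_1, M16_1, M18_2a, M17_1 and M18_b. The age, strain and tissue were shared by all 6, so they formed a single group, and every value below is a description without a test between groups.

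The colon takes up water and salt from the gut content and keeps the dense bacterial community of the lumen away from the tissue. Absorptive colonocytes do the first with carbonic anhydrases, chloride-bicarbonate and sodium-proton exchangers, sodium pumps and water channels, and draw much of their energy from short-chain fatty acids made by bacteria. Goblet cells do the second by secreting the gel-forming mucin Muc2 and its partner proteins, while plasma cells under the epithelium make the antibodies, mostly IgA, that reach the lumen. The muscle layers, nerves, vessels and connective tissue of the wall lie below.

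The total count on genes was 50313805 in M17_2, the shallowest library, and lay between 90110694 and 117477400 in the other 5. Of 38924 genes listed, 26139 had a count in at least 1 of the mice. Levels are given as RPKM, reads per kilobase of gene length scaled to a fixed total, computed from each mouse's counts, the listed gene length and the mouse's total. Genes were called expressed with a mean of at least 1 RPKM and a mean count of at least 100, which 12927 genes met, 11817 of them protein coding. Of these, 5333 reached 10 RPKM, 521 reached 100 and 35 reached 1000. The limit set by 3 counts on a gene of 1 kb lay between 0.0255 and 0.0596 RPKM. The spread of a gene is the standard deviation (SD) over the 6 mice of log2(RPKM + 0.1).

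M17_1 stood apart from the other 5 libraries. Over the 12927 expressed genes, the SD of the log2 difference between 2 mice lay between 0.61 and 0.84 for the 5 pairs with M17_1, and between 0.31 and 0.51 for the other 10 pairs. The closest pair was M17_2 and M19_1. No pair matched to within counting error, whose median SD was at most 0.049, so no library appeared to have been deposited more than once. M17_1 was the mouse farthest from the median for 6796 of the 12927 genes, or 52.6%, against 4.49% to 18.7% for each of the others. It was the lowest of the 6 mice for 37.0% of the expressed genes and the highest for 31.9%, shares against which the counts of list members below can be read. The median gene had an SD of 0.25 with all 6 mice and of 0.19 without M17_1.

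The libraries also differed by the GC content of the gene, taken from its longest transcript. Genes with a GC content over 60% lay at a median of -0.57 on the log2 scale against the 6-mouse median in M17_1 and -0.25 in M18_2a, and at +0.35 in M17_2 and +0.26 in M19_1. Genes of up to 40% GC lay at +0.30 in M17_1 and between -0.15 and +0.08 in the other mice. M16_1 stayed within 0.021 of the median in every class of GC content. The part that this had in the results was not tested. GC contents are given below for some genes that differed between mice. For several of these the SD after removal of the trend with GC content is given too. Removing the trend with GC content left M17_1 apart, with pair SDs between 0.60 and 0.78, against 0.31 to 0.51 for the other pairs.

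**Figure D1:**
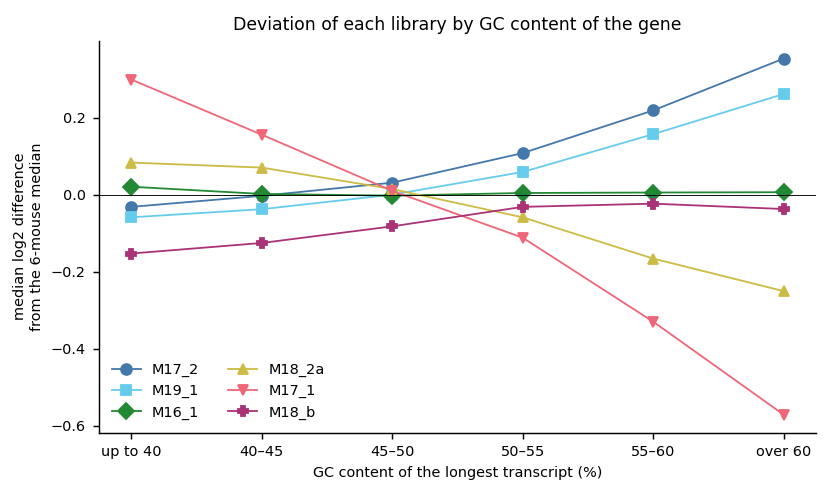
Median log2 difference of each library from the 6-mouse median (vertical axis) for expressed genes in 6 classes of GC content of the longest transcript in percent (horizontal axis), 1 line per WT mouse. M17_1 falls from +0.30 to -0.57 and M17_2 rises to +0.35, while M16_1 stays flat.

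The defining markers of colonic epithelium were high in all 6 mice. Car1, the cytosolic carbonic anhydrase I of colonocytes (chr3:14766216-14808368), was read at 12465 RPKM in M17_2, 14324 in M19_1, 18980.0 in M16_1, 14698 in M18_2a, 15392 in M17_1 and 23636 in M18_b. It was the most abundant gene of the nuclear genome in every mouse, highest in M18_b and lowest in M17_2. Slc26a3, the chloride-bicarbonate exchanger of the colonocyte surface (chr12:31390871-31473917), was read at 154 RPKM in M17_2, 172 in M19_1, 172 in M16_1, 182 in M18_2a, 67.9 in M17_1 and 221 in M18_b. M17_1 was the lowest and did not overlap with the other mice, of which M17_2 was the lowest at 154 RPKM. Krt20, a keratin of differentiated surface cells (chr11:99428403-99438150), was read at 599.9 RPKM in M17_2, 759.9 in M19_1, 765 in M16_1, 694 in M18_2a, 504 in M17_1 and 1206 in M18_b, highest in M18_b and lowest in M17_1. Muc2, the gel-forming mucin of goblet cells (chr7:141690340-141754693), was read at 2829.9 RPKM in M17_2, 2046 in M19_1, 1831 in M16_1, 2912 in M18_2a, 5116 in M17_1 and 2426 in M18_b. Here M17_1 was the highest mouse. The listed length of Muc2 was 2032 bp, short for a gene that encodes a very large protein, so its RPKM depends on that length.

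Genes on the distal colon list were low and the listed Y-linked genes were nearly absent. Hoxb13 and Hoxd13, patterning genes of the hindmost gut, had means of 0.0486 and 0.0655 RPKM, and Hoxa13 ranged from 0.368 to 1.18 RPKM. Tgm3, a transglutaminase on the same list, had a mean of 0.352 RPKM. The study reports these genes as higher in its APC Min samples than in the WT samples described here. The list was chosen with earlier results of these data known, so their low level is no independent sign of the region sampled. Of the 4 Y-linked genes on the list, Ddx3y, Eif2s3y and Kdm5d had no count in any mouse and Uty did not pass 0.00265 RPKM. Outside the list, Gm47283, which GENCODE places on chromosome Y, was read at 1.54 RPKM in M18_b to 49.8 RPKM in M17_1. The reason was not tested. Of 7 genes on the ileal enterocyte list, 5 were expressed, some at substantial levels. Among the 5, Fabp6 and Sis had SDs of 0.74 and 1.21. Fabp2, the intestinal fatty acid binding protein, had a lowest value of 673 RPKM, a median of 867 and a highest of 1349. Slc10a2, the bile acid transporter of the terminal ileum, ranged from 63.0 to 231 RPKM, and Mep1a, a brush border protease, from 218 to 278 RPKM. Lct, the lactase of the small intestine, stayed at or under 0.0738 RPKM, and Apoa4, an apolipoprotein of absorptive cells, at or under 1.07 RPKM.

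A few genes took a large share of the counts. The most abundant gene of each library held 4.53% ± 1.21 of its counts (SD, n = 6), the 10 most abundant held 12.4% ± 2.35, the 100 most abundant 25.8% ± 3.13 and the 1000 most abundant 54.9% ± 2.93. M17_1 was the most concentrated library, with 16.13% on its first 10 genes against 9.71% in M17_2. The first gene in every mouse was mt-Co1, which encodes subunit 1 of cytochrome c oxidase in the mitochondrial genome, at 29326 ± 7809 RPKM (SD, n = 6). It was read at 23145 RPKM in M17_2, 23170.0 in M19_1, 28862 in M16_1, 29799 in M18_2a, 44217 in M17_1 and 26761 in M18_b, so that M17_1 lay well above the range of the other 5.

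Of the 30 genes with the highest mean RPKM, 8 were encoded in mitochondria. These were mt-Co1, mt-Cytb at 8862 ± 3212 RPKM, the complex I subunits mt-Nd1 at 6937 ± 2496 RPKM, mt-Nd2 at 3107 RPKM, mt-Nd5 at 2825 and mt-Nd4 at 2582, and the ribosomal RNAs mt-Rnr2 and mt-Rnr1 at 1621 and 1473 RPKM. M17_1 was the highest mouse for all 8, against 31.9% of all expressed genes. The levels are means over the mice on the RPKM scale, and the SDs over the log2 values ran from 0.34 for mt-Co1 to 0.72 for mt-Rnr1.

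The epithelial genes among the 30 were led by Car1. Lypd8, which encodes a secreted protein that keeps flagellated bacteria from the mucosa (chr11:58379043-58390728), was read at 3834 RPKM in M17_2, 4642 in M19_1, 4448 in M16_1, 4836 in M18_2a, 5694 in M17_1 and 4556 in M18_b, an SD of 0.18 on the log2 scale. Cyp2c55, a cytochrome P450 of the colon, was at 3166 ± 580.5 RPKM, lowest in M17_1 and M17_2. Ceacam1, an adhesion protein of the epithelial surface, was at 1604 ± 196 RPKM, and Guca2a, which encodes the secreted peptide guanylin that regulates salt and water movement, at 2326 ± 349 RPKM. The keratin gene Krt8 was at 1764 ± 379 RPKM, with M18_b highest at 2394 RPKM. The uncharacterised gene 1810065E05Rik reached 2580.4 ± 346 RPKM and lies next to Lypd8 in the genome, at chr11:58421111-58426024.

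The class of mucus and goblet cell products held 4 of the 30, Muc2, Zg16, Muc3 and Spink4. Of these, Muc3 is not on the fixed list of goblet cell genes used below. Zg16, a lectin-like protein of the mucus that binds Gram-positive bacteria, was at 2362 ± 396 RPKM with a log2 SD of 0.24. Muc3, a membrane-bound mucin, was at 1476 ± 237 RPKM and Spink4 at 1149 ± 279 RPKM. Klk1, tissue kallikrein, was read at 1284 RPKM in M17_2, 1048 in M19_1, 1315 in M16_1, 1232 in M18_2a, 2416 in M17_1 and 862 in M18_b. M17_1 was again the highest and M18_b the lowest. Dmbt1, a scavenger receptor protein that binds bacteria, was at 1288 ± 140.4 RPKM with a log2 SD of 0.16, and Lgals4, a lectin of the epithelial surface, at 1338 ± 153 RPKM with 0.16.

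The remaining genes of the 30 included the ferritin heavy chain gene Fth1 at 2493 ± 416 RPKM, the elongation factor gene Eef1a1 at 2008 ± 399 RPKM, the ribosomal protein gene Rps27 at 1809.5 ± 338 RPKM, the calcium binding protein gene S100g at 1194 ± 205 RPKM and the myosin light chain gene Myl6 at 1230.5 ± 114 RPKM. Igkc, the constant region of the kappa light chain of antibodies, was the only one of them from immune cells. Its values were 578 RPKM in M17_2, 362 in M19_1, 2115 in M16_1, 989 in M18_2a, 3041 in M17_1 and 869.6 in M18_b. M17_1 and M16_1 were the highest and M19_1 the lowest, with a 8.40-fold range. Gm42418 (chr17:39846958-39848788), which RefSeq lists under the name Rn18s-rs5 as a sequence related to 18S ribosomal RNA, was read at 1475 RPKM in M17_2, 1648 in M19_1, 742 in M16_1, 10179 in M18_2a, 2804 in M17_1 and 4816 in M18_b. The highest and the lowest mouse differed 13.7-fold, and reads of ribosomal RNA can be counted on it.

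**Figure D2:**
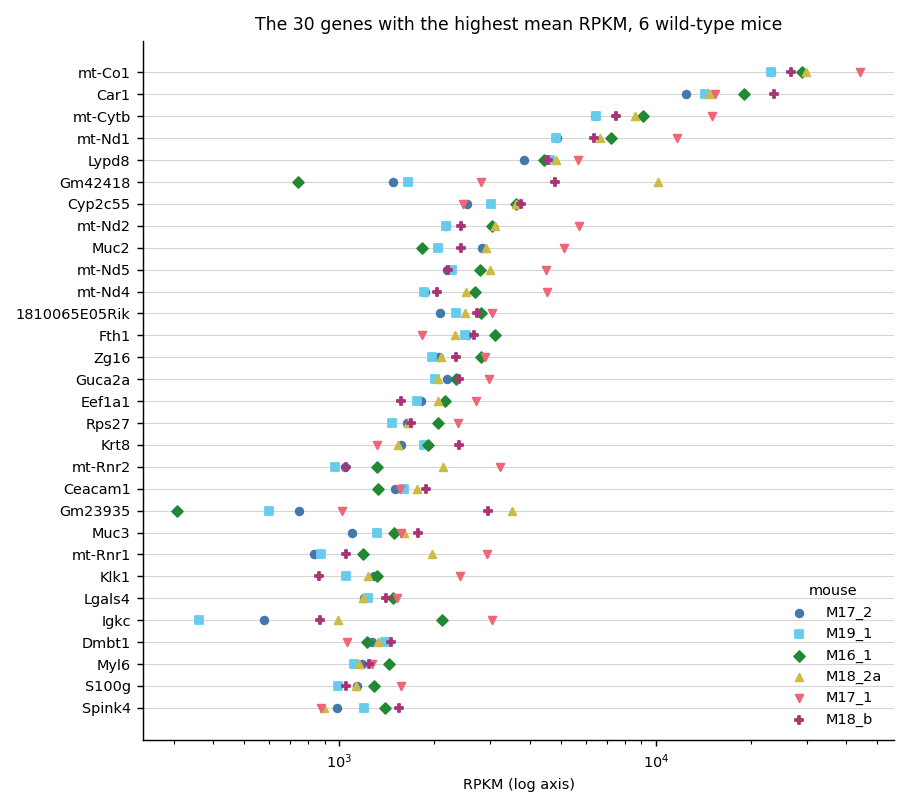
RPKM on a log axis (horizontal) of the 30 genes with the highest mean RPKM (vertical, in order of the mean), 1 symbol per WT mouse. The symbols of most epithelial genes lie close together, whereas Gm42418, Gm23935 and Igkc are spread widely and M17_1 is the highest for the mitochondrially encoded genes.

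Ranked by their share of all counts, which does not divide by length, 3 genes each held over 1% of a library on average. These were mt-Co1 with 4.53% ± 1.21, Car1 with 2.07% ± 0.507 and mt-Cytb with 1.01% ± 0.367 (SD, n = 6). Dmbt1 came next with 0.804% ± 0.0876, and mt-Nd1, Gm42418, Cyp2c55, Lypd8, Ceacam1 and Muc2 followed, down to 0.581% ± 0.241 for Muc2.

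Each gene was then put into 1 functional class. The protein-coding genes outside the named classes held 55.4% ± 2.71 of the counts (SD, n = 6). The largest named class was the 37 mitochondrially encoded genes with 7.93% ± 2.50. M17_1 had 12.7% and the others between 6.00% and 8.08%. Without M17_1 the class held 6.98% ± 0.981. The cytosolic ribosomal proteins held 3.31% ± 0.529, also with M17_1 highest at 4.21%. The subunits of the respiratory chain that are encoded in the nucleus held 1.64% ± 0.136, and M17_1 with 1.73% lay within the range of the other mice, 1.45% to 1.80%.

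The next classes by share held several products of the epithelium. Lipid and ketone metabolism, which here includes the cytochromes P450, held 3.53% ± 0.227 over 409 genes, of which 237 were expressed, with Cyp2c55 and Fabp2 the highest. Carbonic anhydrases and ion transport held 3.39% ± 0.542, from 2.87% in M17_1 to 4.38% in M18_b. Its members after Car1 were Car2 at 610.5 ± 191 RPKM and Atp1b1, a subunit of the sodium pump, at 471 ± 126 RPKM. Mucus and goblet cell products held 2.06% ± 0.281 and antimicrobial proteins and lectins 1.63% ± 0.135. Keratins and junction proteins held 1.81% ± 0.327, lowest in M17_1 at 1.29% and highest in M18_b at 2.25%.

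Several classes with roles in most cells differed little between mice. RNA binding and splicing held 2.05% ± 0.128, protein folding and the secretory pathway held 1.9997% ± 0.0649, glycolysis and central carbon metabolism 1.21% ± 0.0531 and the proteasome, ubiquitin and lysosome class 1.63% ± 0.0811. The cytoskeleton class differed more, from 1.36% in M17_1 to 2.11% in M18_b. Antigen presentation by MHC molecules held 0.315% ± 0.0165, led by B2m at 754 ± 169 RPKM. Muscle contractile genes held 1.14% ± 0.149, highest in M17_2 at 1.41%. Collagen and extracellular matrix held 0.73% ± 0.152, lowest in M17_1 at 0.496% and highest in M19_1 at 0.91%.

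The immunoglobulin, small RNA and long non-coding RNA classes had wide ranges. The share of immunoglobulin genes was 0.116% in M17_2, 0.0979% in M19_1, 0.35% in M16_1, 0.167% in M18_2a, 0.457% in M17_1 and 0.152% in M18_b, so that M16_1 and M17_1 stood above the other 4. Small structured RNAs ran from 0.0223% to 0.0757%, and long non-coding RNAs from 0.731% to 2.63%, where Gm42418 was the leading gene and M18_2a the highest mouse. Genes for which GENCODE gave no symbol held 0.19% ± 0.0147.

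**Figure D3:**
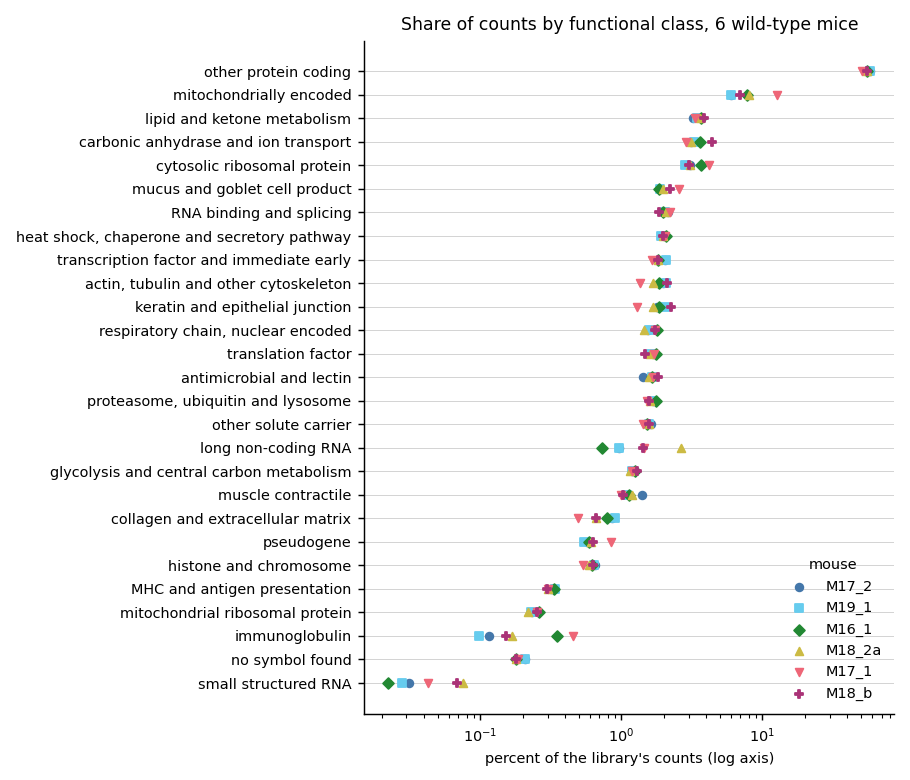
Percent of each library's counts on a log axis (horizontal) held by each functional class (vertical, in order of the mean), 1 symbol per WT mouse. Most classes keep their symbols together, while the immunoglobulin, small structured RNA and long non-coding RNA classes spread widely and M17_1 stands out for mitochondrially encoded genes.

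Most genes varied little between mice. The SD of log2(RPKM + 0.1) had a median of 0.25, about 1.19-fold, with quartiles of 0.16 and 0.38, and percentiles 5 and 95 were 0.091 and 0.69. An SD under 0.1 was found for 870 genes and an SD of at least 1 for 216, or 1.67% of the expressed genes. The median fell with level from 0.30 at 1 to 3 RPKM to 0.20 at 30 to 100 RPKM, and was 0.31 among the 35 genes at 1000 RPKM or more, of which 4 had an SD of at least 1. Without M17_1, 133 genes had an SD of at least 1.

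**Figure D4:**
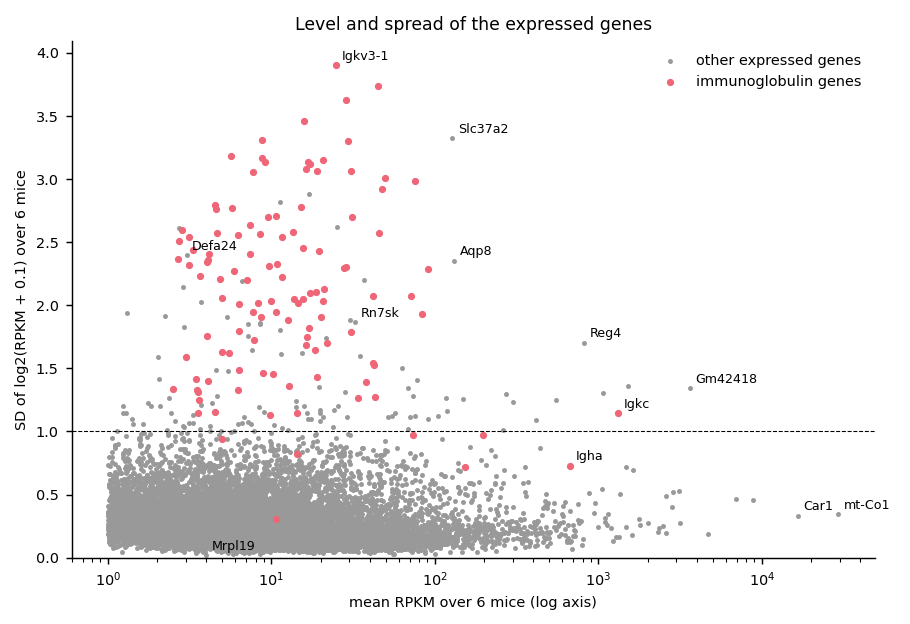
SD over the 6 WT mice of log2(RPKM + 0.1) (vertical) against the mean RPKM on a log axis (horizontal) for 12927 expressed genes, with immunoglobulin genes in red and an SD of 1 as a dashed line. Of the 216 genes on or above the line, 108 are immunoglobulin genes.

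The steadiest gene was Mrpl19, a protein of the large subunit of the mitochondrial ribosome (chr6:81957851-81965958), with 3.93 RPKM in M17_2, 3.96 in M19_1, 4.02 in M16_1, 3.97 in M18_2a, 4.04 in M17_1 and 4.09 in M18_b and an SD of 0.02. Serp1, a membrane protein of the endoplasmic reticulum that protects new proteins under stress, was the most abundant of the 20 steadiest at 99.9 ± 1.99 RPKM, an SD of 0.03. Eed, a subunit of Polycomb repressive complex 2, ranged from 17.19 to 18.3 RPKM, Prmt5, an arginine methyltransferase, from 8.58 to 9.19 RPKM, and Cmas, which activates sialic acid for the sugar chains of mucins and other glycoproteins, from 54.1 to 57.9 RPKM. The other members were Gfm2, Mrps5, Gatb, Erp44, Rab1a, Rtn3, Maea, Arih2, Gm15720, Tigd2, Gm7964, Dedd, Ruvbl1, Ncaph2 and Leo1. Their mean levels ran from 3.43 to 99.9 RPKM. The choice of these 20 rested on scaling by the total count, since 0 of them were among the 20 lowest after TMM or DESeq2 scaling, and 3 without M17_1. TMM shifted all genes of a library by between -0.12 in M17_2 and +0.11 in M18_b on the log2 scale, and DESeq2 scaling by between -0.10 and +0.13 in the same mice.

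Genes often taken as a reference differed widely in spread. Among 18 of them the median SD was 0.20, against 0.25 over all expressed genes. Sdha, a subunit of succinate dehydrogenase, had the lowest SD of the 18 at 0.10. Gapdh, the glycolytic enzyme, ranged from 272 to 338 RPKM (SD 0.15) and Ywhaz from 89.3 to 121 RPKM (SD 0.16). Actb, beta-actin, was read at 618 RPKM in M17_2, 648 in M19_1, 591 in M16_1, 543 in M18_2a, 384 in M17_1 and 797 in M18_b, lowest in M17_1. Polr2a, the largest subunit of RNA polymerase II, was read at 21.4 RPKM in M17_2, 23.6 in M19_1, 15.7 in M16_1, 10.5 in M18_2a, 7.37 in M17_1 and 17.4 in M18_b, an SD of 0.64. It was lowest in M17_1, with M18_2a next, and its GC content was 52.4%, against a median of 49.6% over the expressed genes. After removal of the trend with GC content the SD of Polr2a was 0.57. Dnajb1, a chaperone, was steadier than any of the 18, ranging from 21.2 to 24.2 RPKM with an SD of 0.07.

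Immunoglobulin genes dominated the other end. Of 115 expressed immunoglobulin genes, 108 had an SD of at least 1, and 27 of the 30 most variable genes were immunoglobulin variable segments. The median SD of the 115 was 2.10 against 0.25 over all expressed genes. Each variable segment is used by some B cell clones and not by others. The first was Igkv3-1, a variable segment of the kappa light chain (chr6:70703578-70704177), with 0.166 RPKM in M17_2, 0.0545 in M19_1, 32.0 in M16_1, 0.403 in M18_2a, 113 in M17_1 and 3.99 in M18_b. M17_1 and M16_1 were far above the rest. M19_1 and M17_2 were near the counting limit, which is higher for a gene of 359 bp than for 1 kb. Igkv8-21 (chr6:70314895-70315472) was read at 0.165 RPKM in M17_2, 0.676 in M19_1, 83.5 in M16_1, 4.66 in M18_2a, 140.1 in M17_1 and 40.3 in M18_b. It was high in M17_1 and M16_1 and also in M18_b, and M17_2 was again near the counting limit.

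Of these 27 segments, 12 were highest in M17_1, 6 in M16_1, 4 in M18_2a, 4 in M18_b, 1 in M17_2 and 0 in M19_1. Over all expressed genes these mice, in the same order, were highest for 31.9%, 9.17%, 8.60%, 9.58%, 28.0% and 12.7%. Ighv1-80, a heavy chain segment (chr12:115912344-115912776), was highest in M18_b at 78.6 RPKM and was at 0.194 in M18_2a. Ighv15-2 was highest in M17_2 at 45.2 RPKM and had no count in M18_b. Igkv4-61 reached 25.5 and 26.1 RPKM in M18_2a and M18_b and did not pass 1.29 in the other 4. Igkv3-5 was read at 101 RPKM in M17_1 and at or under 0.775 in the rest, and Igkv3-7 at 87.7 RPKM in M16_1 and at or under 5.92 in the rest. Many variable segments are alike in sequence, so reads can be shared between them and the level of a single segment is uncertain.

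The expressed constant regions ranged in spread from an SD of 0.31 for Ighm, of IgM, to 1.65 for Ighg1, of an IgG. Igkc had an SD of 1.14, and the other constant regions Iglc2 and Ighg2b 1.43 and 1.34. Igha, the constant region of IgA, was read at 389.9 RPKM in M17_2, 357 in M19_1, 1044 in M16_1, 501 in M18_2a, 1189.6 in M17_1 and 536 in M18_b, an SD of 0.73. Jchain, which joins antibody molecules for transport into the lumen, was read at 96.3 RPKM in M17_2, 75.3 in M19_1, 317 in M16_1, 146 in M18_2a, 419.8 in M17_1 and 130.4 in M18_b, an SD of 0.97. Igha and Jchain were highest in M17_1 and M16_1, as was Mzb1, a chaperone of antibody secretion, at 9.89 and 5.44 RPKM against 1.60 to 4.24 in the others. Sdc1, the remaining gene on the plasma cell list, went the other way. It was highest in M19_1 and lowest in M17_1, with an SD of 0.29. The B cell genes Cd79a, Ms4a1, Cd22 and Cr2 were below the level set for expressed genes. Cd79a, part of the B cell receptor, reached 1.67 RPKM in M16_1 and 1.11 in M17_1 and was lowest in M19_1 at 0.269. In whole tissue, more cells of a type and more RNA in each cell cannot be told apart.

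Outside the immunoglobulin genes, 108 genes had an SD of at least 1. M17_1 was the mouse farthest from the median for 70 of them, or 64.8% against 52.6% of all expressed genes, low for 52 and high for 18. Gaps between mice were taken on the scale of log2(RPKM + 0.1). In M17_1, 24 of the 12812 expressed genes outside the immunoglobulin genes, or 0.187%, lay at least 4-fold below the lowest of the other 5 mice, and 3, or 0.0234%, lay at least 4-fold above the highest, while each other mouse had between 0 and 3 genes below and between 0 and 2 above. After removal of the trend with GC content the count below in M17_1 was 17, and after TMM or DESeq2 scaling it was 28. Where known, the GC contents of the 24 ran from 43.1% to 66.9% with a median of 53.3%, against 49.6% over the expressed genes. Without M17_1, 42 genes outside the immunoglobulin genes had an SD of at least 1.

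The widest gap was that of Slc37a2, a sugar-phosphate transporter of the endoplasmic reticulum (chr9:37227585-37255738). It was read at 161 RPKM in M17_2, 128 in M19_1, 157 in M16_1, 147 in M18_2a, 0.444 in M17_1 and 173 in M18_b. The 5 other mice lay close together, with an SD of 0.16 without M17_1 against 3.32 with it. Trpv6, a calcium channel of the epithelial surface (chr6:41620624-41636405), was at 0.267 RPKM in M17_1 and between 13.9 and 46.2 RPKM in the others, and Gal3st2c, a sulfotransferase that acts on galactose in sugar chains (chr1:93990509-94017147), at 0.967 RPKM against 34.5 to 47.0 RPKM.

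Aqp8, a water channel of colonocytes (chr7:123462291-123468004), was read at 74.8 RPKM in M17_2, 135 in M19_1, 174 in M16_1, 85.7 in M18_2a, 3.003 in M17_1 and 317 in M18_b. M18_b was the highest and M17_1 lay 24.9-fold below the next mouse in RPKM, and without M17_1 the SD was still 0.84. Reg4, a secreted lectin of enteroendocrine and other secretory cells (chr3:98222156-98236748), was read at 720.1 RPKM in M17_2, 1019 in M19_1, 1103 in M16_1, 734 in M18_2a, 55.5 in M17_1 and 1281 in M18_b. M17_1 lay 12.98-fold below the next lowest mouse. St3gal5, a sialyltransferase that makes the ganglioside GM3, was at 1.25 RPKM in M17_1 and between 21.7 and 29.7 RPKM in the others. Rnf152, a ubiquitin ligase of the lysosome, was at 0.343 against 7.95 to 12.3 RPKM. Gsdmc4, a gasdermin, was at 82.7 RPKM against 428 to 862 RPKM, and Mpp6, a scaffold protein of cell membranes, at 9.86 RPKM against 75.5 to 106 RPKM.

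The stretches around the transcription start of the 4 genes with the widest gaps that had an entry in the RefSeq promoter table (GRCm38.p6) are shown because these genes were low together in 1 mouse. Each runs from 250 bases before the start to 50 bases after it, and capitals mark a match to TATAAA or to TTTATNG, the latter a core of the sites of the intestinal factor Cdx2, on either strand. Slc37a2 and Trpv6 held neither.
Slc37a2 (chr9:37255689-37255988, reverse strand): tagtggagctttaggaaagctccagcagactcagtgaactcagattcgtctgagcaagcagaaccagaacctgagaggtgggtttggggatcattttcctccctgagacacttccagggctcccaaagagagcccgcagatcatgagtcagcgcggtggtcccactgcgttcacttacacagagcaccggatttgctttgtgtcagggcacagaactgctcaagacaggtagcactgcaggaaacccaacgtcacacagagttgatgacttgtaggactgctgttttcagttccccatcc
Trpv6 (chr6:41636356-41636655, reverse strand): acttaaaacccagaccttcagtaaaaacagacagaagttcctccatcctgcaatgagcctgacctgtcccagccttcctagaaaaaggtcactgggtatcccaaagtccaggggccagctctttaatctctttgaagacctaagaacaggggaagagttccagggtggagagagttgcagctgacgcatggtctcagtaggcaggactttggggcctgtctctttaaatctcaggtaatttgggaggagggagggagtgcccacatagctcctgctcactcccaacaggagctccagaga
Gal3st2c (chr1:93990255-93990554, forward strand): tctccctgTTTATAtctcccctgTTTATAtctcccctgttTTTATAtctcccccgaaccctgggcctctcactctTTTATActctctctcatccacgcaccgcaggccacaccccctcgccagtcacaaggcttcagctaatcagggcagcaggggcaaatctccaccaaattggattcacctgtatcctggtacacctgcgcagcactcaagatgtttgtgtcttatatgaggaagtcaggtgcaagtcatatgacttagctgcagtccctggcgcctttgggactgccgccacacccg
Aqp8 (chr7:123462044-123462343, forward strand): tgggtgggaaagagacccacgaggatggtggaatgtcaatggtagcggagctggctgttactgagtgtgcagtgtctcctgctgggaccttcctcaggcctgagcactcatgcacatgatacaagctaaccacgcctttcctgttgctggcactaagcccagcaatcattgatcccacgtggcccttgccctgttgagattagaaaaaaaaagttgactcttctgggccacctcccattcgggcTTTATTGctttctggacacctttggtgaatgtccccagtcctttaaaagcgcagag

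Of the 24 genes low in M17_1, 16 had an entry. TATAAA was present in 1 of the 16, that of Gal3st2c, against 13.6% of 32841 promoter entries of the same 300 bases, and TTTATNG in 1, that of Aqp8, against 10.9%. The reverse complement of TATAAA shares its first letters with TTTATNG, so the 2 searches are not independent. A match is no more than these letters in this stretch.

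The sums of colonocyte and goblet cell genes were not lowest in M17_1. The summed level of the 8 colonocyte genes was 17188 to 29870.0 RPKM, of which Car1 was the larger part, and M17_1 at 20824 lay within the range of the others. Within this list, Slc26a3 and Aqp8 were lowest in M17_1, while Car4, a membrane-bound carbonic anhydrase, was highest there at 292 RPKM against 119.9 to 192 in the others. The 8 goblet cell genes summed to 12725 RPKM in M17_1 and to 7535 to 8943 in the others. Muc2 and Agr2, a folding enzyme of mucin, were highest in M17_1, the latter at 2045 RPKM against 704 to 961. Tff3, a trefoil peptide of the mucus, ranged only from 758 to 978 RPKM. Retnlb, an antibacterial resistin-like peptide of goblet cells, was lowest in M17_1 at 18.8 RPKM against 73.7 to 223. So was Fcgbp, a mucus protein with a GC content of 57.7%, at 26.0 RPKM against 49.9 to 198. The SD of Fcgbp was 1.16, and 0.95 after removal of the trend with GC content.

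Among 18 genes of salt and water transport, 16 were expressed, with a median SD of 0.53 and of 0.35 without M17_1. M17_1 was the lowest mouse for 8 of the 16, against 37.0% of all expressed genes, and M16_1 for 6, against 5.12%. M17_2 was the highest for 11, against 28.0%. Slc9a2, a sodium-proton exchanger, was at 41.7 RPKM in M17_1 and between 102 and 123.1 RPKM in the others. Slc9a3, the main sodium-proton exchanger of the surface, followed another order, lowest in M16_1 at 15.1 RPKM and highest in M17_2 at 67.8. Cftr, the chloride channel, ranged from 23.4 to 33.1 RPKM, with an SD of 0.17. The gamma subunit of the epithelial sodium channel, Scnn1g, was below the level set for expressed genes.

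Genes of fatty acid oxidation and ketone body synthesis were among the steadiest of the fixed lists. All 15 were expressed, with a median SD of 0.17, and 0.11 without M17_1. Acadm and Acadl, dehydrogenases of medium- and long-chain fatty acids, each had an SD of 0.07, at means of 60.8 and 75.5 RPKM. Pdk4, Bdh1 and Slc16a1 had wider spreads, with SDs of 0.48, 0.57 and 0.65. Acads, the short-chain enzyme, had the widest of the 15, with an SD of 1.02, and 0.74 after removal of the trend with GC content. It was read at 94.6 RPKM in M17_2, 102 in M19_1, 73.9 in M16_1, 40.8 in M18_2a, 16.12 in M17_1 and 82.4 in M18_b, lowest in M17_1 and M18_2a, and has a GC content of 59.7%. M17_1 was the lowest mouse for 10 of the 15, against 37.0% of all expressed genes. Slc16a1, which carries butyrate and other monocarboxylates, was at 32.1 RPKM in M17_1 and between 78.3 and 107 RPKM in the others. Among 14 sterol synthesis genes, Fdps and Fdft1 were highest in M17_1, at 88.5 and 54.2 RPKM.

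Of 39 expressed small structured RNAs, 15, or 38.5%, had an SD of at least 1, against 1.67% of all expressed genes. Rn7sk, the 7SK RNA that holds back transcription elongation (chr9:78175303-78175633), was read at 8.65 RPKM in M17_2, 8.10 in M19_1, 3.45 in M16_1, 63.9 in M18_2a, 98.8 in M17_1 and 13.08 in M18_b. M17_1 and M18_2a were the 2 highest mice and M16_1 the lowest. The same 2 mice were highest for Rmrp, the RNA of RNase MRP, at 27.2 and 26.4 RPKM against 1.28 to 6.80, for Rpph1, the RNA of RNase P, at 22.6 and 11.3 against 1.04 to 6.12, and for the vault RNA Vaultrc5. Rn7s1 and Rn7s2, copies of the RNA of the signal recognition particle that are nearly alike and can share reads, were highest in the same mice. All 6 expressed members of the fixed list of such RNAs had an SD of at least 1, and its 3 others, Rny1, Rny3 and Terc, were below the level set for expressed genes. The study reports Rn7sk, Rmrp, Rpph1 and Vaultrc5 as lower in its APC Min samples than in these WT samples. The list was chosen with earlier results of these data known, so the spread of its members is not independent of that choice.

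Gm42418 and several short genes followed another order, with M18_2a and M18_b highest and M16_1 lowest. Gm23935 (chr16:11144125-11144181), listed with a length of 57 bp, was read at 746 RPKM in M17_2, 599 in M19_1, 308 in M16_1, 3508 in M18_2a, 1020.3 in M17_1 and 2951 in M18_b, and Mir6236 (chr9:110281287-110281409) at 572 RPKM in M17_2, 598 in M19_1, 299.5 in M16_1, 2208 in M18_2a, 348 in M17_1 and 2418 in M18_b. Genes shorter than the 100 bp reads have RPKM values that depend strongly on how such reads were counted. The labels do not say how ribosomal RNA was removed, and its part in these values was not tested.

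The tissue, labelled as mucosa and described in the methods as a section of the colon, held RNA of the wall beneath the epithelium in every mouse. Acta2, smooth muscle actin, was read at 732 RPKM in M17_2, 545 in M19_1, 649.6 in M16_1, 636 in M18_2a, 677 in M17_1 and 535 in M18_b, and the muscle myosin gene Myh11 ranged from 212 to 372 RPKM, Tagln from 419 to 622 RPKM and Des from 82.4 to 148 RPKM. All 6 smooth muscle genes were expressed, with SDs from 0.138 to 0.307 and a summed level of 1753 to 2367 RPKM. M17_2 was highest for the sum under each scaling, and the lowest was M18_b, or M19_1 after TMM or DESeq2 scaling. Nerve cells were seen at lower levels. Vip, a peptide of enteric neurons, was read at 44.4 RPKM in M17_2, 29.4 in M19_1, 48.1 in M16_1, 42.9 in M18_2a, 58.2 in M17_1 and 15.7 in M18_b, lowest in M18_b. Uchl1, a neuronal ubiquitin hydrolase, was highest in M17_2 at 12.02 RPKM and lowest in M18_b at 4.22. The 4 glia genes summed to 4.12 to 8.80 RPKM, again with M17_2 highest and M18_b lowest under each scaling.

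Connective tissue genes differed in spread. Dcn, the matrix proteoglycan decorin, ranged from 212 to 293 RPKM with an SD of 0.19, and Lum from 45.7 to 72.3 RPKM with 0.26. Col1a1, the main fibrillar collagen, was read at 22.3 RPKM in M17_2, 39.6 in M19_1, 22.01 in M16_1, 7.51 in M18_2a, 3.02 in M17_1 and 22.8 in M18_b, an SD of 1.35, and Col1a2 from 4.95 to 32.1 RPKM. M17_1 was lowest for both, with M18_2a next, and their GC contents were 58.9% and 55.7%, against 37.4% for Dcn and 41.9% for Lum. The SDs of Col1a1 and Col1a2 were 1.35 and 0.97, and 1.13 and 0.83 after removal of the trend with GC content. Among endothelial genes, Cdh5, an adhesion protein of vessel walls, was at 1.10 RPKM in M17_1 and between 2.49 and 5.51 RPKM in the others, and Pecam1 ranged from 4.87 to 7.96 RPKM.

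Fat cell genes were lowest in M17_2. Adipoq, the fat cell hormone adiponectin (chr16:23146536-23158028), was read at 3.45 RPKM in M17_2, 20.996 in M19_1, 21.7 in M16_1, 36.1 in M18_2a, 17.02 in M17_1 and 20.2 in M18_b, so that M17_2 lay 4.93-fold below the next mouse in RPKM and M18_2a was the highest. Fabp4, a fatty acid carrier of fat cells, ranged from 53.0 to 232 RPKM, and Car3, the carbonic anhydrase of fat and muscle, from 20.5 to 216 RPKM, with M17_2 lowest and M18_2a highest for both. The 5 genes summed to 71.6 to 308 RPKM, and 5 of 5 had M17_2 as the lowest mouse, against 8.26% of all expressed genes.

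Red cell genes were highest in M16_1. Hbb-bs, a beta-globin, was read at 22.3 RPKM in M17_2, 23.8 in M19_1, 139 in M16_1, 41.2 in M18_2a, 65.1 in M17_1 and 18.3 in M18_b, and Alas2, the first enzyme of haem synthesis in red cells, at 0.414 RPKM in M17_2, 0.505 in M19_1, 4.01 in M16_1, 1.06 in M18_2a, 1.05 in M17_1 and 0.416 in M18_b. M16_1 was the highest for all 4 red cell genes, against 9.17% of all expressed genes, and they summed to 262 RPKM there and to 31.9 to 108 in the others. M16_1 was also highest for the heat shock genes Hspa1a and Hspa1b, at 18.6 and 23.4 RPKM, with M17_1 lowest at 0.747 and 2.07. These 2 genes are nearly identical and can share reads, as can the globin genes. The other 8 heat shock genes had SDs from 0.07 to 0.62.

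Immune and stress genes differed by mouse. Of 13 expressed interferon-stimulated genes, 12 were highest in M17_1, against 31.9% of all expressed genes. Isg15, a ubiquitin-like protein induced by interferon, was read at 3.94 RPKM in M17_2, 6.44 in M19_1, 5.77 in M16_1, 6.58 in M18_2a, 17.22 in M17_1 and 4.48 in M18_b, Ifit1, which binds foreign RNA, at 30.1 RPKM in M17_1 against 5.49 to 10.9, and Oas2, a sensor of double-stranded RNA, at 4.19 against 0.606 to 1.45. Irf7, the transcription factor of that pathway, was not highest there and ranged from 34.9 to 55.3 RPKM. Reg3b, an antibacterial lectin, was read at 224 RPKM in M17_2, 231 in M19_1, 127 in M16_1, 299.6 in M18_2a, 597 in M17_1 and 78.4 in M18_b, highest in M17_1. Mcpt1, a protease of mucosal mast cells, was at 10.4 RPKM in M18_b and at or under 1.35 in the others. Kit, the receptor on the same mast cell list, which other cells of the gut wall also make, was lowest in M18_b at 10.1 RPKM and highest in M17_2 at 24.7. Mcpt2 and Cpa3 were below the level set for expressed genes. Duoxa2, the partner of the epithelial oxidase Duox2, was at 15.97 RPKM in M18_b and at or under 2.40. Neutrophil genes S100a8, S100a9 and Ly6g stayed under the level set for expressed genes in a sum of 0.262 to 1.04 RPKM.

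Immediate early genes, which respond within minutes to handling and other stimuli, were lowest in M17_1. Fos was read at 29.97 RPKM in M17_2, 43.7 in M19_1, 31.4 in M16_1, 18.24 in M18_2a, 5.70 in M17_1 and 45.8 in M18_b, and Jun at 27.1 RPKM in M17_2, 29.2 in M19_1, 22.4 in M16_1, 17.9 in M18_2a, 6.68 in M17_1 and 34.7 in M18_b. M18_b was the highest mouse for both and M18_2a the second lowest. M17_1 was the lowest for 8 of the 9 expressed members, against 37.0% of all expressed genes. The GC contents of Fos and Jun were 51.9% and 55.5%. Their SDs were 1.12 and 0.85, and 1.05 and 0.73 after removal of the trend with GC content. The 14 expressed clock genes had a median SD of 0.42, and 0.26 without M17_1. Npas2 and Nr1d1 had SDs of 0.81 and 0.77. Dbp and Tef, which follow the daily rhythm, were steadier, with SDs of 0.13 and 0.14. They ranged from 26.9 to 33.9 RPKM and from 22.4 to 28.7 RPKM. Arntl, the core activator of the clock, was at 1.61 RPKM in M17_1 and between 3.76 and 5.32 RPKM in the others.

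The 4 listed genes of dividing cells had SDs from 0.07 to 0.30. Their median was 0.18, against 0.25 over all expressed genes. Mki67, a marker of cycling cells, was read at 14.4 RPKM in M17_2, 15.7 in M19_1, 14.4 in M16_1, 14.999 in M18_2a, 14.9 in M17_1 and 16.3 in M18_b, an SD of 0.07, and Top2a, the topoisomerase of dividing cells, ranged from 10.9 to 13.3 RPKM. Stem cell genes were low, with Lgr5 from 1.15 to 1.91 RPKM and Ascl2 from 0.981 to 1.82 RPKM. The 4 stem cell genes on the list summed to 6.46 to 13.2 RPKM, lowest in M17_1 and highest in M19_1 under each scaling. Enteroendocrine genes were all expressed and led by Chgb at 95.7 ± 16.98 RPKM, with the hormone genes Sct at 61.5 RPKM, Gcg at 55.3 and Pyy at 32.0. Gcg, Pyy and Insl5 were highest in M17_1, Insl5 at 5.52 RPKM against 1.16 to 2.49 in the others, while Chga was lowest there at 37.9 RPKM against 47.1 to 76.9.

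Genes of Paneth cells were highest in M19_1. Defa24, a defensin of Paneth cells, was read at 15.2 RPKM in M19_1 and at or under 1.32 in the others, with no count in M17_2. Itln1, an intelectin of Paneth and goblet cells, was at 4.10 RPKM against 0.453 to 1.75. Lyz1, a lysozyme of Paneth cells, was at 17.3 RPKM against 6.16 to 12.1. Of 5 pancreatic genes, Cela1, an elastase, was the only one expressed, from 21.6 to 27.1 RPKM with M16_1 highest. Prss2, Pnlip and Cpa1 were below the level set for expressed genes, each highest in M19_1 at 1.15, 0.843 and 0.369 RPKM, and Amy2a5 had no count in any mouse.

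Other cell types gave low sums. The 5 macrophage genes summed to 21.04 to 39.4 RPKM, highest in M16_1 and lowest in M18_b under each scaling. Of the 5 T cell genes, 2 passed the level set for expressed genes, and the sum was 4.74 to 7.35 RPKM. The tuft cell sum was 8.28 to 14.8 RPKM, highest in M17_1, where Sh2d6 alone gave 7.77 RPKM. The tuft cell genes Dclk1 and Trpm5 were at 2.43 and 1.42 RPKM in M17_1, each the second lowest value. The mesothelium sum, over the outer lining of the gut, was 0.954 to 8.08 RPKM, highest in M16_1 and lowest in M18_b. Of 7 class II MHC genes, which present antigen to T cells, 6 were expressed with a sum of 158 to 271 RPKM, highest in M16_1 under each scaling.

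**Figure D5:**
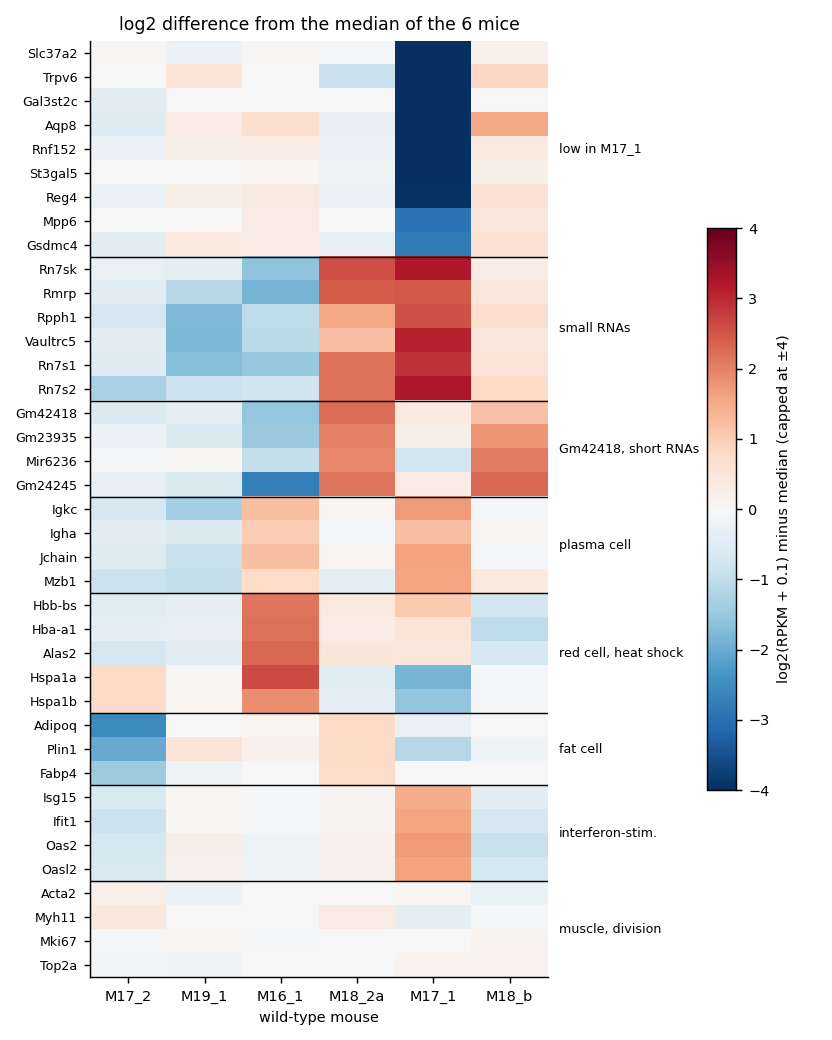
Log2(RPKM + 0.1) minus the median of the 6 WT mice (colour, capped at ±4) for genes named in the text (vertical, in groups) in each mouse (horizontal). The first group is dark blue in M17_1 alone, the small RNAs are red in M17_1 and M18_2a, the red cell and heat shock genes in M16_1, and the muscle and cell division genes are pale in all 6 mice.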

How the data were processed

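RNA of the proximal colon of 6 WT mice was measured by RNA-seq with paired 100 bp Illumina reads, 1 library per mouse. Per the labels and the study's methods, the authors aligned the reads with STAR 2.3.0 to GRCm38.p2 and counted them per gene with featureCounts, and deposited raw counts and a gene length for each library. The version of featureCounts, how it treated strand and how it treated reads with several matches are not given in the sources used here. The files of the mutant mice were not used for any result, and some genes are not reported here.

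RPKM was computed from the deposited counts, the listed length and the mouse's total count. Gene symbols, classes of transcript and coordinates came from GENCODE M21, matched by gene identifier for 37607 of 38924 genes, and promoters from RefSeq on GRCm38.p6. Spread was the SD of log2(RPKM + 0.1) over genes with a mean of at least 1 RPKM and 100 counts. Each gene entered 1 functional class by the stem of its symbol and its type of transcript, so a class can hold a relative by name alone. GC content was that of the longest transcript, known for 12831 of 12927 expressed genes, and the adjusted values had the median of each of 40 bins of GC content taken off. The total counts were 50313805 in the shallowest library and 90110694 to 117477400 in the others. Intervals from counting cover counting error only.

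The 6 mice form 1 group, and no test between groups was run. Dixon's ratio was used only to screen single values for a mouse apart from the rest. The genes named were the 30 with the highest mean RPKM, the 10 with the highest share, the 30 with the highest and the 20 with the lowest SD, the 3 highest of each class, and members of 36 fixed lists. Genes at least 4-fold apart in 1 mouse, and others outside that rule, were named after their values were seen. The members and the lists were chosen with earlier results of these data known. Alternatives were TMM factors (edgeR 4.0.16) and DESeq2 1.42.0 size factors, other pseudocounts and filters, other measures of spread, a total without mitochondrially encoded genes, and each mouse left out in turn. Python 3.11.15 with pandas 2.3.3 and R 4.3.3 were used, and the scripts were tested on simulated data.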

Additional observations from a re-analysis of the deposited data

Results flagged for a closer look

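For 169 values (class shares, list sums and named genes), the mouse at either end was compared with the others by Dixon's ratio of its gap to the whole range, against the 95% critical value for 6 mice. Of these, 22 were past it. Chance alone would put about 1 in 20 values past it if none had been chosen for its spread, but the named genes include those with the highest SD, so that choice in part fixed the number. M17_1 was the mouse set apart in 18 of the 22, M16_1 in 3 and M19_1 in 1. The values are not independent, since 1 library can move many genes.

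In M17_1 the share of mitochondrially encoded genes was 12.7%, that of pseudogenes 0.852%, the goblet cell sum 12725 RPKM, the interferon-stimulated sum 207 RPKM, mt-Nd2 5719.5 RPKM and Igkv3-5 101 RPKM, each the highest of the 6 mice. The sum of the genes of ketone synthesis and fatty acid oxidation was 1325 RPKM there, the lowest. Among single genes M17_1 was the lowest for Slc37a2 at 0.444 RPKM, Trpv6 at 0.267, Gal3st2c at 0.967, the uncharacterised gene 9130204K15Rik at 0.0995 and Aqp8 at 3.003. It was also the lowest for Rnf152 at 0.343 RPKM, St3gal5 at 1.25, the sulfate transporter gene Slc26a1 at 0.0673, Reg4 at 55.5, Epop at 0.845 and Cyp4f15, a cytochrome P450, at 0.0797.

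M16_1 was the highest for the red cell sum at 262 RPKM, for the neutrophil sum at 1.04 RPKM, of which no member reached the level set for expressed genes, and for the gene ENSMUSG00000094749.1, without a symbol, at 97.5 RPKM. M19_1 was the highest for the Paneth cell sum at 37.5 RPKM.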

How the results depend on the processing

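Of 1711 alternative values, 556 belonged to summary results, and 522 of these moved by less than the spread between mice or by less than 1.5 times. The number of the 20 least variable genes still among the 20 was 0 under TMM scaling, 0 under DESeq2 size factors, 0 with no filter, 1 by the median absolute deviation, 1 by edgeR's tagwise dispersion and 1 with GC-adjusted values, and 3 to 10 with a mouse left out, lowest without M17_1. The 216 genes with an SD of at least 1 became 687 with no filter and 85 among protein-coding genes, and 133 to 257 with a mouse left out, lowest without M17_1 and highest without M18_2a. Of the 30 most variable genes, 2 stayed among protein-coding genes, 12 by the coefficient of variation, 19 by edgeR's dispersion and 3 with immunoglobulin genes left out, since most of the 30 are immunoglobulin genes. With mitochondrially encoded genes taken out of the total, which raises every other share, the shares were 60.2% for other protein-coding genes, 3.83% for lipid and ketone metabolism, 2.23% for RNA binding, 2.17% for protein folding, 2.04% for transcription factors, 1.79% for the nuclear respiratory chain, 1.78% for translation factors, 1.77% for antimicrobial proteins, 1.77% for proteasome and lysosome, 1.68% for other solute carriers, 1.32% for glycolysis, 0.665% for histones, 0.343% for MHC, 0.262% for mitochondrial ribosomal proteins and 0.207% for genes without a symbol. Of 1155 alternative values of single named genes, 103 moved by over 1.5 times, 27 of them without M17_1. The cause was not tested. GC-adjusted values and the ranking without immunoglobulin genes were chosen after seeing the data. No paired analysis was possible because the 6 mice form a single group. The shallowest library limits genes near 1 RPKM.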
